A study of Mus musculus with 16 samples.

Results

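The RNAs described here belong to families that include BTB-domain adaptors of cullin-3 ubiquitin ligases, and are called adaptor RNAs for short. They were taken as every RNA in the table whose symbol begins with Klhl, Kctd or Btbd followed by a digit, which gave 47 of 12900 RNAs, made up of 22 Klhl, 16 Kctd and 9 Btbd RNAs. Whether each of the 47 encodes an adaptor of such a ligase was not examined. The choice used the symbols only, but the family was taken up because earlier results of these data had named Klhl12 and Kctd10 as less enriched in Ps of the Pkp4 cUTR line. The enrichment of these 2 RNAs and its difference between the lines are therefore given as a description. A mean log2 CPM above 1 was reached by 41 of the 47, and Kctd7, Kctd14, Btbd16, Klhl10, Klhl11 and Klhl28 lay below it.

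A cullin-3 ligase is built in modules. The cullin holds the RING protein Rbx1 at one end and a BTB protein at the other, and the BTB protein picks the substrate, through Kelch repeats in the Klhl proteins and through diverse C-terminal parts in the Kctd proteins. Attachment of the ubiquitin-like protein Nedd8 switches the cullin on. In fibroblasts such ligases are known for degrading the small GTPase RhoA, which drives stress fibres and contraction, and for modifying the COPII coat that exports collagen.

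The study used NIH/3T3 mouse fibroblasts transduced with lentivirus to carry a doxycycline-inducible human beta-globin coding sequence, followed either by the beta-globin UTR (HBB, the control line) or by the Pkp4 UTR (Pkp4 cUTR, a competitor for the protrusion-targeting machinery). Both lines were induced with doxycycline at 1 µg per ml for 3 days, plated for 2 h without serum on filters with 3 µm pores and given LPA below the filter for 1 h, then fixed for 10 min in 0.3% PFA. Protrusions (Ps) and cell bodies (CB) were collected as separate fractions, with 4 samples in each of the 4 groups HBB CB, HBB Ps, Pkp4 CB and Pkp4 Ps. Each construct was studied in 1 line, so that the construct and the line cannot be told apart, and whether a line was a single clone is not given in the sources used here. The samples held 18660287 to 31260831 reads assigned to the RNAs in the table, and 3 reads corresponded to 0.0890 to 0.176 CPM (counts per 1000000 reads).

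The fractions and lines carried their labels. Reads of Pkp4, which include those of the introduced UTR, were 4.44 higher on the log2 scale in Pkp4 CB than in HBB CB and 3.32 higher in Ps. The protrusion RNAs Rab13, Net1, Kank2 and Cyb5r3 were 4 of 4 higher in Ps of both lines, and the nuclear RNAs Malat1 and Neat1 were 2 of 2 lower. Of the markers looked for, Thy1 (fibroblast), Epcam and Krt18 (epithelial), Ptprc (blood) and Meg3 (nuclear) were not among the 12900 RNAs. The other 8 fibroblast markers were present, the lowest being Pdgfrb at a mean log2 CPM of 8.01. In both lines 6 of the 8 were lower in Ps, and Vim and S100a4 were higher. Of other cell types, the epithelial RNAs Cdh1 and Krt8 had means of 2.10 and 3.40, the macrophage RNA Cd68, which was lower in Ps of both lines, had 2.31, and the endothelial RNAs Pecam1 and Cdh5 had -0.84 and -1.36. On the first principal component (48.6% of the variance) the CB samples numbered 4 stood apart from the other CB samples, at a score of -23.4 against -47.5 to -39.8 in HBB cells and at -0.972 against -42.2 to -27.7 in Pkp4 cUTR cells. Counts are therefore also given without both of these samples.

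The adaptor RNAs were more often lower than higher in Ps, and 13 of 47 were called in neither line, a count not made over all RNAs. In HBB cells 21 of the 47 RNAs were lower in Ps than in CB at an adjusted p under 0.05, where 28.9% of all 12900 RNAs were lower, and 6 were higher, where 28.3% of all RNAs were higher (limma, Benjamini-Hochberg adjustment over all RNAs). In Pkp4 cUTR cells 23 were lower against a background of 28.5%, and 5 were higher against 28.2%. The median log2(FC), Ps over CB, was -0.22 for the members in HBB cells and -0.26 in Pkp4 cUTR cells, and 0.01 for all RNAs in each line. The estimate was below 0 for 33 members in HBB cells (49.5% of all RNAs) and for 36 in Pkp4 cUTR cells (49.2% of all RNAs). The values of the 4 Ps samples all lay below the 4 CB samples for 16 members in HBB cells, against 26.8% of all RNAs, and for 13 in Pkp4 cUTR cells, against 22.2%. All 4 lay above for 5 members in HBB cells, against 25.5%, and for 5 in Pkp4 cUTR cells, against 22.6%. The counts without both CB samples numbered 4 were 6 higher and 21 lower in HBB cells, and 5 higher and 25 lower in Pkp4 cUTR cells.

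These counts depend on the scaling of the libraries. When each library was scaled to its plain total, the median log2(FC) of all RNAs moved by -0.24 in HBB cells and by -0.26 in Pkp4 cUTR cells, and the split became 3 higher and 31 lower in HBB cells and 3 higher and 35 lower in Pkp4 cUTR cells. Of all RNAs, 1940 were then higher and 5614 (43.5%) lower in HBB cells, and 1797 higher and 5867 (45.5%) lower in Pkp4 cUTR cells. The share of higher RNAs among the called members was 22.2% in HBB cells and 17.9% in Pkp4 cUTR cells, and 8.82% and 7.89% with library totals. Over all RNAs this share fell alike, from 49.5% to 25.7% in HBB cells and from 49.7% to 23.4% in Pkp4 cUTR cells. Relative to the median of all RNAs, the members' median was -0.23 in HBB cells with the scaling the authors used and with plain totals, and in Pkp4 cUTR cells it was -0.27 and -0.26. A log2 CPM is a share of the RNA of its fraction, so that a smaller amount of an RNA in Ps and a larger amount of other RNAs cannot be told apart.

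**Figure D1:**
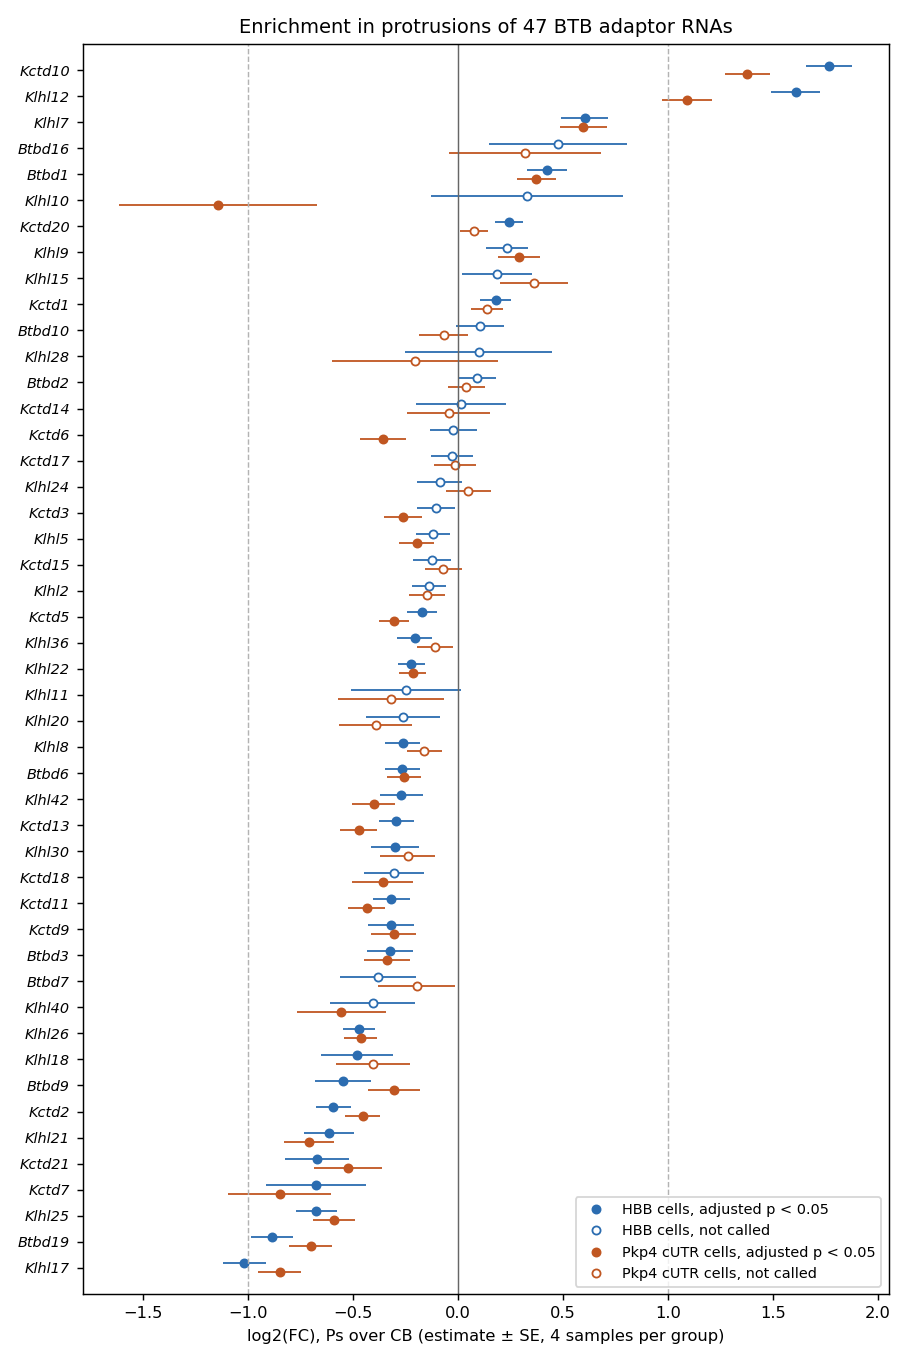
Log2(FC), Ps over CB, of the 47 BTB adaptor RNAs (horizontal axis, estimate with its SE from 4 samples per group) in HBB cells (blue) and Pkp4 cUTR cells (orange), ordered by the value in HBB cells; filled points passed an adjusted p of 0.05 and dashed lines mark a 2-fold change. Kctd10 and Klhl12 lie beyond 2-fold enrichment in both lines, and 33 of 47 estimates in HBB cells are below 0.

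Kctd10 and Klhl12 were the only members that met the study's definition of a Ps-enriched RNA (FC above 2 and unadjusted p under 0.05), and they met it in both lines; it was met by 4.54% of all RNAs in HBB cells and by 5.07% in Pkp4 cUTR cells. Kctd10 belongs to the BACURD branch of the KCTD family, whose ligases target RhoA, and lies at chr5:114363567-114380508 of mm10. Its log2 CPM in HBB CB was 7.42, 7.42, 7.43 and 7.37, and in HBB Ps it was 9.17, 8.90, 9.52 and 9.10. In Pkp4 CB it was 7.29, 7.42, 7.39 and 7.05, and in Pkp4 Ps 8.89, 8.56, 8.60 and 8.62. Every Ps sample of Kctd10 was thus above every CB sample in each line, and the 4 Pkp4 Ps samples were all below the 4 HBB Ps samples. The log2(FC) was 1.77 ± 0.11 (SE) in HBB cells, 3.40-fold, and 1.38 ± 0.11 in Pkp4 cUTR cells, 2.60-fold. Per length of the longest protein-coding transcript, Kctd10 was the most abundant member, with 90.5 CPM per kb over all samples. Its exons overlap in part with those of Myo1h on the opposite strand, and whether the counting used the strand is not given in the sources used here.

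Klhl12, the adaptor of the COPII coat protein Sec31a and of Dishevelled, lies at chr1:134455531-134491018 and was about as strongly enriched at a far lower level, 4.64 CPM per kb. Its log2 CPM was 3.24, 3.22, 3.19 and 3.18 in HBB CB and 4.81, 4.53, 5.15 and 4.79 in HBB Ps. In Pkp4 CB it was 3.38, 3.54, 3.49 and 3.22, and in Pkp4 Ps 4.67, 4.52, 4.52 and 4.29. The fractions did not overlap in either line, and the SD of the HBB CB samples was 0.0272. The log2(FC) of Klhl12 was 1.61 ± 0.12 (SE) in HBB cells, 3.05-fold, and 1.09 ± 0.12 in Pkp4 cUTR cells, 2.13-fold. With library totals the value in Pkp4 cUTR cells fell under 2-fold, to 0.83, where the median of all RNAs was -0.25.

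Klhl7, mutated in a form of retinal degeneration, and Btbd1, a binding partner of topoisomerase 1, were higher in Ps of both lines by less than 2-fold. The log2 CPM of Klhl7 was 3.15, 3.05, 2.91 and 2.64 in HBB CB and 3.68, 3.58, 3.49 and 3.44 in HBB Ps, and 3.29, 3.14, 2.90 and 3.09 in Pkp4 CB and 3.78, 3.74, 3.53 and 3.75 in Pkp4 Ps. The fractions of Klhl7 did not overlap, with log2(FC) of 0.60 ± 0.11 (SE, adjusted p = 0.000177 in limma) and 0.60 ± 0.11 (adjusted p = 0.000181). Btbd1 had 5.26, 5.34, 5.04 and 5.13 in HBB CB against 5.68, 5.76, 5.59 and 5.44 in HBB Ps, and 5.78, 5.63, 5.47 and 5.69 in Pkp4 CB against 6.03, 6.18, 6.06 and 5.80 in Pkp4 Ps. These groups also did not overlap, with log2(FC) of 0.42 ± 0.10 (SE, adjusted p = 0.00102) and 0.37 ± 0.09 (adjusted p = 0.00243). With library totals neither Btbd1 value passed, at 0.18 (adjusted p = 0.114) and 0.11 (adjusted p = 0.337), while Klhl7 was at 0.37 (adjusted p = 0.0190) and 0.33 (adjusted p = 0.0310).

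The other higher calls were small and were made in 1 line each. Kctd20 rose by 0.24 ± 0.07 (SE, adjusted p = 0.00401 in limma) in HBB Ps, where its 4 samples at 7.05 to 7.27 lay above the CB samples at 6.89 to 6.96, and had 0.08 ± 0.07 in Pkp4 cUTR cells. Kctd1, which represses AP-2 transcription factors, had 0.18 ± 0.07 (adjusted p = 0.0473) in HBB cells and turned to -0.06 with library totals. Klhl9, which works with its relatives on the mitotic kinase Aurora B, had 0.29 ± 0.10 (adjusted p = 0.0171) in Pkp4 cUTR cells and 0.23 ± 0.10 (adjusted p = 0.0502) in HBB cells. With library totals Kctd20 was at 0.01 in HBB cells and Klhl9 at 0.02 in Pkp4 cUTR cells.

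**Figure D2:**
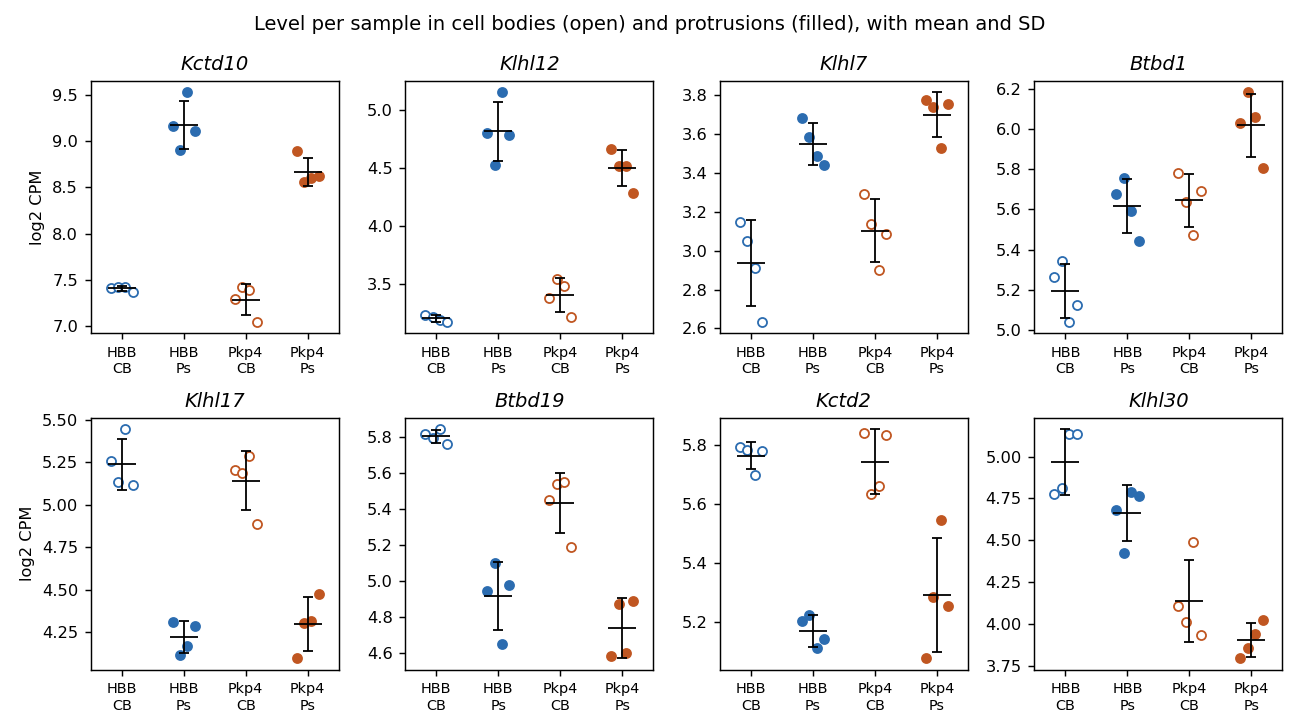
Log2 CPM (vertical axes, which differ between panels) of 8 members in every sample of the 4 groups, CB as open and Ps as filled circles, HBB in blue and Pkp4 cUTR in orange, with the mean and SD as black bars. The fractions separate upwards for Kctd10, Klhl12, Klhl7 and Btbd1 and downwards for Klhl17, Btbd19 and Kctd2, and Klhl30 separates by line.

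Of the 21 and 23 members that were lower in Ps, 17 were lower in both lines (Btbd3, Btbd19, Klhl21, Klhl17, Kctd7, Klhl42, Klhl25, Kctd21, Kctd13, Klhl26, Kctd11, Kctd2, Btbd6, Kctd9, Klhl22, Kctd5 and Btbd9). The share of all RNAs lower in both lines was not counted. Across all RNAs the log2(FC) was closely correlated between the lines (Pearson's r = 0.912), so this overlap is no trait of the members alone. Klhl17, an actin-binding Kelch protein also called actinfilin, fell the most in HBB cells, and was the 1 member to meet the mirror image of the Ps-enrichment rule there, which 4.00% of all RNAs met. Its log2 CPM was 5.26, 5.13, 5.44 and 5.11 in HBB CB against 4.31, 4.11, 4.17 and 4.29 in Ps, and 5.20, 5.18, 5.29 and 4.89 in Pkp4 CB against 4.10, 4.30, 4.32 and 4.48 in Ps. The groups were far apart, with log2(FC) of -1.02 ± 0.10 (SE, adjusted p = 2.6e-07 in limma) and -0.85 ± 0.10 (adjusted p = 2.47e-06). The value in HBB cells sat at the 2-fold line and was -0.95 without HBB CB replicate 3, so that no member met the rule without that sample or without HBB Ps replicate 2.

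Btbd19 followed, with 5.82, 5.80, 5.84 and 5.76 in HBB CB against 4.95, 5.10, 4.65 and 4.98 in Ps and 5.45, 5.54, 5.55 and 5.19 in Pkp4 CB against 4.59, 4.87, 4.60 and 4.89 in Ps. All CB samples of a line were above all its Ps samples, with log2(FC) of -0.89 ± 0.10 (SE, adjusted p = 7.85e-07) and -0.70 ± 0.10 (adjusted p = 1.61e-05 in limma). Klhl25, the adaptor for the translational repressor Eif4ebp1, ranged from 3.84 to 3.99 in HBB CB and from 2.91 to 3.41 in Ps, a log2(FC) of -0.68 ± 0.10, and had -0.59 ± 0.10 in Pkp4 cUTR cells. Klhl21, another Aurora B adaptor, was lower by 1.53-fold in HBB cells and 1.63-fold in Pkp4 cUTR cells. Kctd2, a relative of Kctd5, had CB samples between 5.70 and 5.79 and Ps samples between 5.11 and 5.22 in HBB cells, with log2(FC) of -0.59 ± 0.08 (adjusted p = 1.06e-05) there and -0.45 ± 0.08 (adjusted p = 0.000178) in Pkp4 cUTR cells. Klhl26 had -0.47 ± 0.08 and -0.46 ± 0.08. Btbd9, a gene associated with restless legs syndrome, had -0.55 ± 0.13 in HBB cells, where its groups did not overlap, and -0.30 ± 0.13 (adjusted p = 0.0467 in limma) in Pkp4 cUTR cells, where they did.

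Most of the remaining members lower in both lines fell by less in HBB cells. The exceptions were Kctd7, at -0.67 ± 0.24 and -0.85 ± 0.25 with a mean log2 CPM below 1, and Kctd21. The KCASH proteins act on the histone deacetylase Hdac1 in Hedgehog signalling. Of them, Kctd21 had -0.67 ± 0.15 in HBB cells and -0.52 ± 0.16 in Pkp4 cUTR cells, Kctd11 had -0.32 ± 0.09 and -0.43 ± 0.09, and Kctd6 had -0.36 ± 0.11 (adjusted p = 0.010 in limma) in Pkp4 cUTR cells and -0.02 ± 0.11 (adjusted p = 0.877) in HBB cells. Kctd5, which targets G protein beta subunits, had -0.17 ± 0.07 and -0.30 ± 0.07, whereas its relative Kctd17 had -0.03 ± 0.10 and -0.01 ± 0.10 and was called in neither. Klhl22, the adaptor for the mTORC1 regulator Depdc5 and had log2(FC) of -0.22 ± 0.06 in both lines, with no overlap of the groups. Klhl42, the adaptor for the microtubule-severing katanin, had -0.27 and -0.40, and Btbd3, a factor in dendrite orientation, had -0.32 and -0.34. Among the 13 members called in neither line were Klhl2, an adaptor for WNK kinases, at -0.14 and -0.15, Klhl20, an adaptor for the RhoA activator Arhgef11, at -0.26 and -0.39, and Btbd2, the relative of Btbd1, at 0.09 and 0.04.

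The 3 BACURD paralogs differed in direction. While Kctd10 was 3.40-fold higher in HBB Ps, Kctd13 was lower, with 3.40, 3.47, 3.39 and 3.32 in HBB CB against 3.08, 3.01, 3.20 and 3.13 in Ps and with 3.47, 3.49, 3.28 and 3.22 in Pkp4 CB against 2.92, 2.90, 2.88 and 2.88 in Ps. Its log2(FC) was -0.29 ± 0.08 (SE, adjusted p = 0.00651 in limma) and -0.47 ± 0.09 (adjusted p = 0.000201), with no overlap of the groups. Tnfaip1, the founding member, which the symbol rule did not include, was at 6.74 to 6.93 in HBB CB and at 6.80 to 6.86 in HBB Ps. Its log2(FC) was -0.02 ± 0.07 in HBB cells (adjusted p = 0.856) and -0.03 in Pkp4 cUTR cells (adjusted p = 0.732), and with library totals it was called lower in both, at -0.25 and -0.29, while Kctd10 kept its direction and its call. The exons of Kctd13 overlap those of Gm21984 and Asphd1.

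The log2(FC) of the members was correlated between the lines. The sign of the log2(FC) was the same for 42 of 47 members, a count not made over all RNAs. Over the 47 members Pearson's r between the log2(FC) in HBB cells and in Pkp4 cUTR cells was 0.862, and 0.735 over the 45 members other than Klhl12 and Kctd10, against 0.912 across all RNAs; these are correlations across genes, which share libraries and are not independent replicates. Spearman's rho between log2(FC) in HBB cells and the GC content of the longest protein-coding transcript was -0.375 over the 46 members with an annotated transcript and -0.402 over all RNAs with one. For transcript length it was -0.019 and -0.251, and for the length of the 3′ UTR -0.124 and -0.070. Kctd10 and Klhl12 were not at an extreme, ranking 23 and 18 of 46 by transcript length, 13 and 20 by the length of the 3′ UTR and 19 and 32 by GC content, counted from the highest.

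Over all 16 samples, the RNAs whose log2 CPM followed that of Klhl12 most closely were Kif1c, a kinesin motor (Pearson's r = 0.986), Zbtb12 (0.986), Cenpb (0.985), Gdf11 (0.985) and Kctd10 (0.983), in a search over the 10154 RNAs whose mean log2 CPM was above 1. For Kctd10, chosen for the same search after its values were seen, they were Kank2 (0.998), Dynll2, a dynein light chain (0.996), Trp53inp2 (0.989), Kif1c (0.988) and Trim41 (0.988), with Klhl12 in place 13. These values describe a pattern that is mostly the contrast of the fractions, and no test was made.

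The next question was whether the competing UTR changed the enrichment of these RNAs, which log2(Diff FC), the log2(FC) in Pkp4 cUTR cells minus that in HBB cells, measures. No member and none of the 12900 RNAs passed an adjusted p of 0.05 (background 0%, limma; the adjusted p was 0.9997 for each member named here). At an unadjusted p under 0.05, 4 members had a lower enrichment in Pkp4 cUTR cells, against 0.961% of all RNAs, and 0 had a higher one, against 1.36%. The 4 were Klhl12, Kctd10, Kctd6 and Klhl10. The first 2 are the RNAs for which the family was taken up, so that their part of the count restates that choice, and 2 of the other 45 members remain. Of the members Ps-enriched in HBB cells, both Kctd10 and Klhl12 counted as less enriched in Pkp4 cUTR cells under the study's looser p of 0.1, as did 0.372% of all RNAs, and this is how they had come to notice. No member was Ps-enriched in HBB cells and more enriched in Pkp4 cUTR cells at the same p, against 0.0853% of all RNAs. The median log2(Diff FC) was -0.04 for the members and 0.01 for all RNAs, and the estimate was below 0 for 27 members, against 48.4% of all RNAs.

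For Klhl12 the log2(Diff FC) was -0.52 ± 0.17 (SE), with a 95% interval of -0.86 to -0.17. The estimated difference in level, Pkp4 cUTR over HBB, was 0.20 ± 0.13 in CB and -0.31 ± 0.11 in Ps, and the samples of the lines overlapped in both fractions. For Kctd10 the log2(Diff FC) was -0.39 ± 0.15, with an interval of -0.71 to -0.07. Its level in CB differed by -0.12 ± 0.11 and that in Ps by -0.51 ± 0.11, in the same samples that enter the log2(Diff FC). For both RNAs the smallest difference came without HBB Ps replicate 3, in which each had its highest value, and was -0.41 for Klhl12 and -0.27 for Kctd10.

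Of the remaining members with an unadjusted p under 0.05, Kctd6 had a log2(Diff FC) of -0.33 ± 0.16 (unadjusted p = 0.0469 in limma), which was -0.26 without HBB CB replicate 1. In Pkp4 CB it was 2.67, 2.92, 2.76 and 2.89 against 2.26, 2.62, 2.42 and 2.55 in HBB CB, and the Ps samples of the lines overlapped. Klhl10, a testis RNA, had -1.47 ± 0.66 (unadjusted p = 0.0371) on a mean of 7.63 reads per sample and as little as 1 read, and -1.02 without Pkp4 Ps replicate 4. Klhl10 was also the 1 member that met the mirror image of the Ps-enrichment rule in Pkp4 cUTR cells, met by 2.92% of all RNAs, with a log2(FC) of -1.14 ± 0.47 that became -0.69 without the same sample. At this depth a difference in Klhl10 could not be measured reliably. For the other members higher in Ps the intervals of log2(Diff FC) ran from -0.34 to 0.32 for Klhl7, from -0.33 to 0.23 for Btbd1 and from -0.36 to 0.03 for Kctd20.

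**Figure D3:**
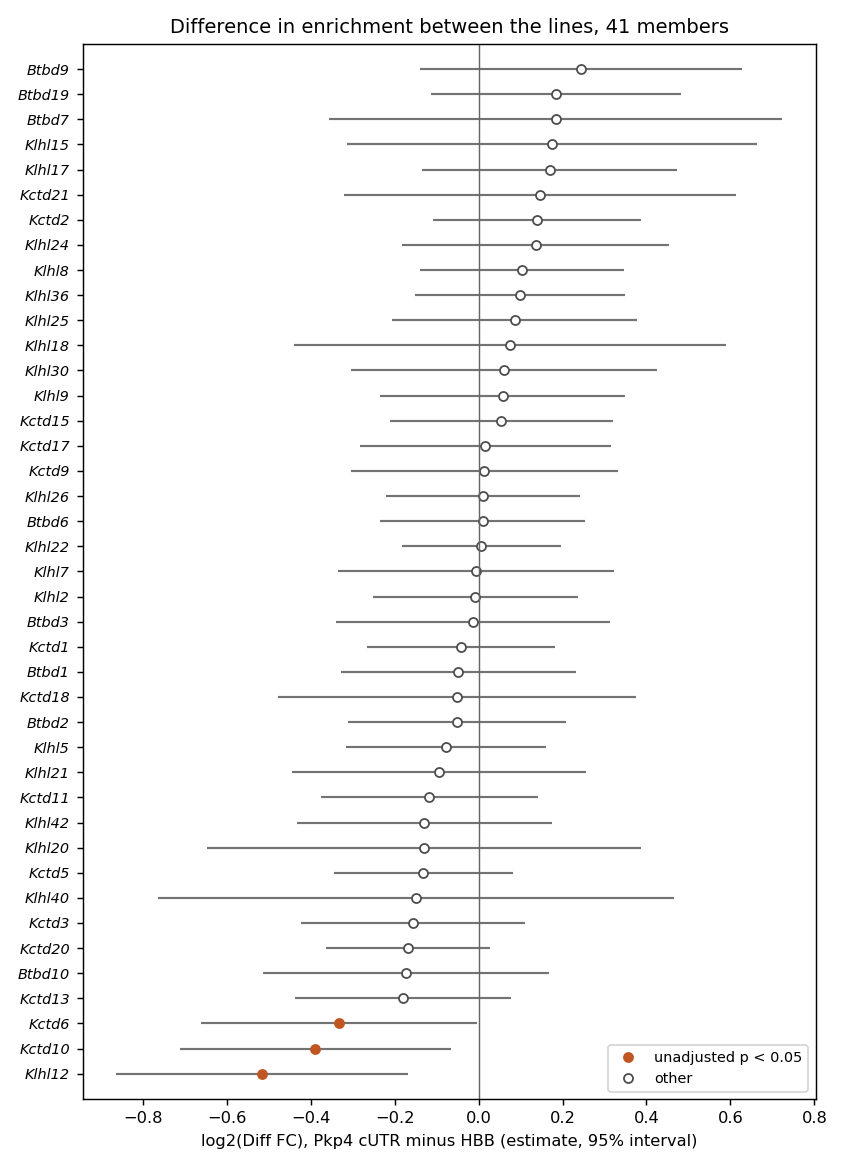
Log2(Diff FC), the log2(FC) in Pkp4 cUTR cells minus that in HBB cells (horizontal axis, estimate with its 95% interval), of the 41 members with a mean log2 CPM above 1. Klhl12, Kctd10 and Kctd6 (orange) have intervals below 0 before any adjustment, and the intervals of the other members include 0.

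The levels of the members were also compared between the lines within each fraction, a measure that had played no part in the choice of members other than Klhl12 and Kctd10. In CB, 3 members were higher in Pkp4 cUTR than in HBB cells (Kctd15, Btbd1 and Kctd6) against a background of 3.42%, and 3 were lower (Klhl30, Btbd19 and Klhl26) against 5.55%. In Ps, 2 were higher (Kctd15 and Btbd1) against 2.89%, and 5 were lower (Klhl30, Kctd10, Klhl26, Kctd11 and Kctd5) against 4.26%. With library totals the counts were 1 higher and 3 lower in CB and 1 higher and 5 lower in Ps, and with median centring 1 higher and 3 lower in CB. All 4 samples of Pkp4 cUTR cells lay above those of HBB cells for 2 members in CB (6.49% of all RNAs) and 2 in Ps (6.31%), and below them for 4 in CB (8.11%) and 9 in Ps (7.40%). The estimate was below 0 for 23 members in CB, against 49.4% of all RNAs, and for 29 in Ps, against 47.3%. Without both CB samples numbered 4 the counts were 2 higher and 2 lower in CB, where Btbd19 (-0.31, adjusted p = 0.0703 in limma) and Kctd6 (0.35, adjusted p = 0.0897) lost their call, and 2 higher and 5 lower in Ps. The median difference was 0.01 in CB and -0.07 in Ps for the members, and 0.00 and 0.01 for all RNAs. The same-numbered samples of the 2 lines varied together, and with the replicate number as a block shared by the lines 3 were higher and 4 lower in CB, and 2 higher and 5 lower in Ps. Some cell type markers also differed between the lines. In CB, Cdh1 was 0.52 ± 0.14 (SE) and Vim 0.28 ± 0.08 higher in Pkp4 cUTR cells, and Cdh5 differed by -1.21 ± 0.32 (adjusted p = 0.0247, 0.0370 and 0.0226 in limma), and in Ps Krt8 was 0.53 ± 0.16 higher (adjusted p = 0.0466). Of the 13 markers the others passed in neither fraction, and the part of any of them in the members' differences was not tested.

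Klhl30 differed the most between the lines. Its log2 CPM was 4.78, 4.81, 5.14 and 5.14 in HBB CB against 4.11, 4.02, 4.49 and 3.93 in Pkp4 CB, and 4.68, 4.42, 4.79 and 4.76 in HBB Ps against 3.80, 3.86, 3.94 and 4.02 in Pkp4 Ps. The lines did not overlap in either fraction, with differences of -0.82 ± 0.12 (SE, adjusted p = 0.000157 in limma) in CB and -0.76 ± 0.13 (adjusted p = 0.00117) in Ps. Klhl26 was lower by 0.43 ± 0.08 in CB, where it was 6.39 to 6.63 in HBB cells and 5.91 to 6.21 in Pkp4 cUTR cells, and by 0.42 ± 0.08 in Ps (adjusted p = 0.00132 and 0.00297). Btbd1 was higher in Pkp4 cUTR cells by 0.45 ± 0.09 (adjusted p = 0.00492) in CB and by 0.40 ± 0.09 (adjusted p = 0.0138) in Ps, with no overlap. In Ps the call for Btbd1 was lost without HBB Ps replicate 4 (0.34, adjusted p = 0.0568) or Pkp4 Ps replicate 2 (0.35, adjusted p = 0.0557).

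The other differences between the lines were near the threshold. Kctd15, a repressor of AP-2 factors and the closest relative of Kctd1, was higher by 0.30 ± 0.09 (adjusted p = 0.0412 in limma) in CB and by 0.35 ± 0.09 (adjusted p = 0.0241) in Ps. Its Ps samples were 5.33, 5.08, 5.27 and 5.28 in HBB cells and 5.75, 5.48, 5.61 and 5.52 in Pkp4 cUTR cells, without overlap, while its CB samples touched, with 5.45 in an HBB sample and 5.43 in a Pkp4 cUTR sample. The call for Kctd15 was lost in 9 of 16 repeats that left out 1 sample in CB, with the smallest value, 0.23, without Pkp4 CB replicate 3. It was lost in 4 of 16 in Ps, with the smallest value, 0.30, without Pkp4 Ps replicate 1. Kctd6 was higher by 0.35 ± 0.10 (adjusted p = 0.0366) in CB, a call lost in 4 of 16 repeats, among them the one without HBB CB replicate 1 (0.28). Btbd19 was lower by 0.37 ± 0.10 (adjusted p = 0.0192) in CB, and by 0.29 (adjusted p = 0.0609) without Pkp4 CB replicate 4. Kctd5 was lower by 0.29 ± 0.07 (adjusted p = 0.0227) in Ps and Kctd11 by 0.31 ± 0.09 (adjusted p = 0.0453), and the call for Kctd5 was lost in 4 of 16 repeats, with -0.25 without Pkp4 Ps replicate 3.

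**Figure D4:**
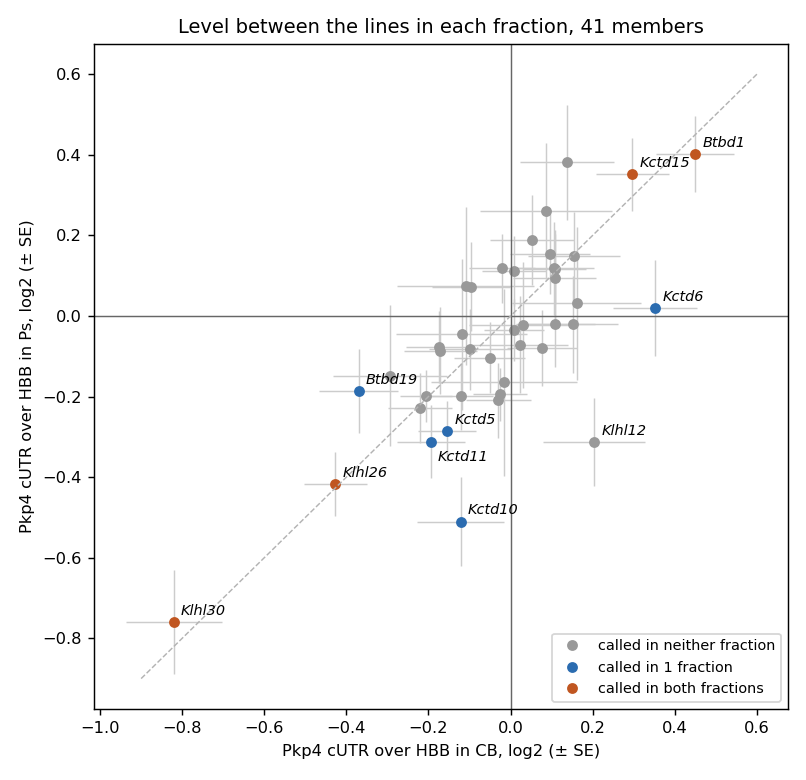
Difference in level between the lines, Pkp4 cUTR over HBB on the log2 scale, in CB (horizontal axis) and in Ps (vertical axis) for the 41 members with a mean log2 CPM above 1, with SE as grey lines; the dashed line marks equal differences. Klhl30 and Klhl26 were lower and Btbd1 and Kctd15 higher in both fractions, and Klhl12 and Kctd10 lie below the dashed line.

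The adaptors were finally set beside the other parts of the ligase. The cullin-3 core and the neddylation factors lay on the Ps side. Of 17 such RNAs, 12 were higher and 1 lower in Ps of HBB cells, and 13 were higher and 2 lower in Pkp4 cUTR cells, with a median log2(FC) of 0.47 and 0.46 (all RNAs 0.01). Of all RNAs 28.3% and 28.2% were higher. With library totals 8 core RNAs were higher and 4 lower in HBB cells and 7 higher and 4 lower in Pkp4 cUTR cells, and their median lay 0.46 and 0.44 above that of all RNAs. Cul3 itself, the scaffold, was 3.12, 2.94, 2.80 and 2.80 in HBB CB against 3.79, 4.00, 3.95 and 3.81 in Ps, and 2.70, 2.65, 2.70 and 2.78 in Pkp4 CB against 3.94, 4.23, 4.06 and 3.90 in Ps. The fractions were well apart, with log2(FC) of 0.97 ± 0.10 (SE, adjusted p = 2.24e-07 in limma) and 1.32 in Pkp4 cUTR cells, a log2(Diff FC) of 0.35 (unadjusted p = 0.0201). Dcun1d1, which helps to attach Nedd8, had 1.25 ± 0.17 and 1.38, and Nedd8 had 0.74 ± 0.10 and 0.74. Rbx1 had 0.61 and 0.51. Of 17 estimates 4 were below 0 in each line. They were Cand2, a relative of the exchange factor Cand1, at -0.55 and -0.52, Dcun1d2 at -0.18 and -0.32, the second of which passed, and Dcun1d3 (-0.24 and -0.25) and Cand1 (-0.02 and -0.03), which passed in neither line.

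The other BTB adaptors, chosen by function and outside the symbol rule, numbered 24 in the table. Of these 4 were higher and 10 lower in Ps of HBB cells, where 28.3% of all RNAs were higher and 28.9% lower. In Pkp4 cUTR cells 7 were higher and 8 lower, against 28.2% and 28.5%. The median log2(FC) was -0.16 and -0.05 (all RNAs 0.01). With library totals 1 was higher and 12 lower in HBB cells, against 15% and 43.5% of all RNAs. In Pkp4 cUTR cells 0 were then higher and 13 lower, against 13.9% and 45.5%. The falls with the smallest p in HBB cells were in Abtb1 (-0.87 and -0.60), Abtb2 (-0.59 and -0.56) and Armc5 (-0.58 and -0.50). Abtb1 was the 1 RNA of the 24 with a higher enrichment in Pkp4 cUTR cells at an unadjusted p under 0.05, against 1.36% of all RNAs. A lower enrichment was found for 0 of the 24, against 0.961%. Enc1 had -0.50 and -0.70, the lowest value of the list in Pkp4 cUTR cells, and Keap1, the sensor for oxidative stress, had -0.17 and -0.24. Spop, whose ligase carries a MATH domain in place of Kelch repeats, had 0.23 and 0.21, and with library totals -0.01 and -0.06.

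Of 22 substrates and partners of the ligases, 7 were higher and 9 lower in Ps of HBB cells, where 28.3% of all RNAs were higher and 28.9% lower, and 7 were higher and 10 lower in Pkp4 cUTR cells, against 28.2% and 28.5%. With library totals 5 were higher and 14 lower in HBB cells, against 15% and 43.5% of all RNAs. In Pkp4 cUTR cells 3 were then higher and 14 lower, against 13.9% and 45.5%. Wnk1, a kinase targeted through Klhl2 and Klhl3, was 6.41, 6.46, 6.35 and 6.10 in HBB CB against 7.53, 7.59, 7.75 and 7.56 in Ps, with log2(FC) of 1.28 ± 0.08 (SE) in HBB cells and 0.97 in Pkp4 cUTR cells and a log2(Diff FC) of -0.30 (unadjusted p = 0.0120 in limma). Of the Klhl12 partners, Pdcd6 had 0.50 and 0.39, Pef1 had 0.06 and 0.09 and was not called, and Sec31a had -0.24 and -0.34, the second of which passed (adjusted p = 0.0108 in limma). Of the Dishevelled RNAs, Dvl2 was lower at -0.58 and -0.62 and Dvl1 at -0.44 and -0.43, and Dvl3 had -0.71 and -0.69 with an SE of 0.33 and 0.37 and did not pass. Without both CB samples numbered 4, Dvl3 passed in both lines, at -0.87 (adjusted p = 0.00398 in limma) and -1.05 (adjusted p = 0.00207). With library totals it passed at -0.95 (adjusted p = 0.0244) and -0.97 (adjusted p = 0.0351). Rhoa, the target of the BACURD proteins, had 0.32 and 0.25 in HBB and Pkp4 cUTR cells, and with library totals 0.09 and -0.01, whereas Rhob, its relative, had -0.29 and -0.35, the second of which passed. The counts of these 3 lists are descriptions, since the lists were drawn up with results of the data known.

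**Figure D5:**
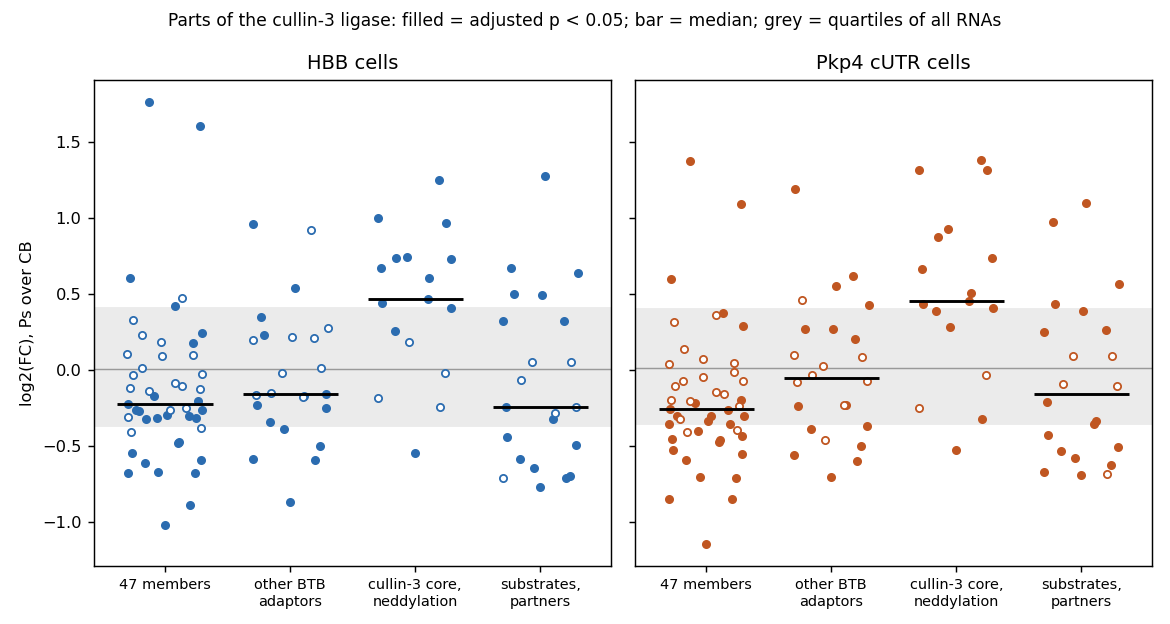
Log2(FC), Ps over CB, of each RNA (vertical axis) in HBB cells (left) and Pkp4 cUTR cells (right), for the 47 members, 24 other BTB adaptors, 17 cullin-3 core and neddylation RNAs and 22 substrates and partners; filled points passed an adjusted p of 0.05, black bars are medians and the grey band spans the quartiles of all RNAs. The core RNAs have a median of 0.47 in HBB cells, and the members a median of -0.22.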

How the data were processed

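The 16 RNA-Seq samples formed 4 groups of 4, described by the study as independent replicates. Per the study's methods the authors aligned reads with STAR 2.4.2a to mm10, counted them per gene with Rsubread and normalized them with limma 3.26.1. The authors deposited log2 CPM values, whose steps are those of reads with 0.5 added before the logarithm. The stated low-count filter, a log2 CPM above 0.5 in at least 1 sample, was not met by 1418 of the 12900 RNAs in the table, among them Btbd16, Klhl10, Klhl11 and Klhl28. Whether counting used the strand, and how the library sizes were scaled, is not given in the sources used here.

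Whole reads were recovered from the steps between low values (100% within 0.01 of a whole number) together with the scaled library size of each sample. One limma-voom fit (limma 3.58.1, R 4.3.3) over all 12900 RNAs and 16 samples gave 1 mean per group and the contrasts Ps over CB in each line, the log2(Diff FC), and the difference of the lines within CB and within Ps. P-values were 2-sided and were adjusted by the Benjamini-Hochberg method over all RNAs. The fit was also run on simulated reads with known differences and independent samples, as a check of the code and not of any result given here. The floor of 3 reads covers counting error only. Positions, transcript lengths and overlaps came from a GENCODE annotation of the same build, in which 46 of the 47 members were found (not Klhl17).

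Same-numbered Ps and CB samples of a line were not taken as pairs, since the correlation of their deviations from the group means was weakly positive in HBB cells (0.0455 to 0.389, 1 of 4 pairs under 0.1) and -0.363 to 0.00248 in Pkp4 cUTR cells. Between the lines, samples that shared a number varied together, with 0.331 to 0.628 in CB and 0.196 to 0.392 in Ps, each of the 4 pairs over 0.1, and the number was fitted as a block across lines as well. Alternatives were other scalings, no precision weights, log2(CPM + 1), a filter on the mean, the replicate blocks, a fold of 1.5, leaving out each sample, and leaving out both CB samples numbered 4.

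The members and lists were chosen with earlier results of these data known. Named with full values were, per contrast, the 6 members of smallest unadjusted p with a mean log2 CPM above 1, those meeting a rule of the study, the BACURD RNAs and the top RNAs of the lists. Others, such as Klhl7, Klhl9 and Kctd1, were picked after their values were seen.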

Additional observations from a re-analysis of the deposited data

Results flagged for a closer look

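Among 72 groups of 4 samples tested for the named genes, 3 held a sample far from the other 3 by Dixon's ratio (critical value 0.829), a test that chance passes in about 1 of 20 groups. Kctd10 was at a log2 CPM of 7.37 in HBB CB replicate 4, against 7.42 to 7.43 in the other HBB CB samples. Kctd2 was at 5.70 in HBB CB replicate 3, against 5.78 to 5.79. Klhl10 was at -3.70 in Pkp4 Ps replicate 4, which held 1 read, against -1.92 to -1.81.

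The effect of the fraction differed between the lines at an unadjusted p under 0.05 for 4 members, of which none passed after adjustment (limma, adjusted p = 0.9997 for each). The log2(Diff FC) was -0.39 for Kctd10, -0.52 for Klhl12, -0.33 for Kctd6 and -1.47 for Klhl10. Kctd10 and Klhl12 had been picked for this difference.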

How the results depend on the processing

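Of 1161 alternative values of 47 results for single genes, 1095 kept their direction and their side of the threshold, 66 kept the direction and lost the call, and 0 changed direction. Only results of the named genes were counted, and for Ps over CB only calls with a log2(FC) beyond 0.5 in either direction. Smaller calls were left out, and some of these changed sign with library totals. They were those of Kctd1 and Spop in HBB cells, and of Spop, Rhoa and Gnb1 in Pkp4 cUTR cells. For Klhl12 and Kctd10 the log2(FC) kept an adjusted p under 0.05 and the log2(Diff FC), which had no call after adjustment, an unadjusted p under 0.1, while the 2-fold call of Klhl12 in Pkp4 cUTR cells was lost with library totals (0.83). With library totals, members higher in Ps numbered 3 in HBB cells and 3 in Pkp4 cUTR cells, and 35 were lower in Pkp4 cUTR cells. By the study's fold rule 1 was then enriched in Pkp4 cUTR cells (Kctd10), and 2 were depleted in HBB and 3 in Pkp4 cUTR cells. Between the lines 1 member was then higher in CB and 1 in Ps. With median centring 1 was higher in CB and 0 were depleted in HBB cells, where 0 also remained with quantile normalization and with log2(CPM + 1). In Pkp4 cUTR cells 0 were depleted with log2(CPM + 1) and with a mean log2 CPM above 0.5. A fold above 1.5 gave 7 depleted in HBB and 6 in Pkp4 cUTR cells. The cause of these changes was not tested, beyond the shift of all RNAs with library totals and the lower fold.

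Without each sample in turn, members lower in Ps than in CB numbered 15 to 22 in HBB cells, the fewest without HBB Ps replicate 3. In Pkp4 cUTR cells they numbered 17 to 24, the fewest without Pkp4 CB replicate 3. Members higher in Ps than in CB numbered 5 to 7 in HBB cells and 4 to 5 in Pkp4 cUTR cells. The share of all RNAs in these repeats was not counted. Members depleted numbered 0 to 1 in HBB cells (0 without HBB CB replicate 3 or HBB Ps replicate 2). In Pkp4 cUTR cells the depleted members numbered 0 to 2 (0 without Pkp4 Ps replicate 4, 2 without Pkp4 Ps replicate 2). Members higher in Pkp4 cUTR than in HBB cells numbered 1 to 3 in CB (1 without HBB CB replicate 1 or 3 or Pkp4 CB replicate 2) and 0 to 2 in Ps (0 without HBB Ps replicate 4, 1 without HBB Ps replicate 2 or Pkp4 Ps replicate 1, 2 or 3). Members lower in Pkp4 cUTR Ps than in HBB Ps numbered 3 to 6 (3 without HBB Ps replicate 1 or 4 or Pkp4 Ps replicate 2 or 3). Members with a lower enrichment in Pkp4 cUTR cells numbered 2 to 4 (2 without HBB CB replicate 3 or HBB Ps replicate 4).

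In the main fit, same-numbered Ps and CB samples of a line were not taken as pairs. With the replicate number as a block within each line, 6 members were higher and 19 lower in HBB cells and 5 higher and 18 lower in Pkp4 cUTR cells. In that fit 0 were depleted in Pkp4 cUTR cells, and the log2(Diff FC) was -0.53 for Klhl12 and -0.39 for Kctd10. With the block shared by the lines, Klhl10 in Pkp4 cUTR cells (-1.10, adjusted p = 0.0631 in limma) lost its call and no other named result did.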
